A study of Mus musculus with 162 samples.

Results

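The genes described here are 8 markers of the acid-secreting and enzyme-secreting cells of the stomach glands: Atp4a, Atp4b, Slc26a7, Slc26a9, Gif, Pgc, Lipf and Bhlha15. They were taken by gene symbol, and all 8 were found among the 53686 gene rows of the count table. The mRNA-seq counts came from 9 organs of 18 male C57BL/6J mice aged 8 to 9 weeks. Mice went without food for 2, 8, 12, 18 or 22 h or, at 0 h, were not fasted, with 3 mice at each time. All mice were killed at the same clock time, early in the dark phase, and each mouse gave every organ. The organs were stomach (STM), olfactory bulb (OB), brain (BRN), cerebellum (CBL), brainstem (BST), liver (LIV), interscapular brown fat (iBAT), perigonadal white fat (pgWAT) and posterior-subcutaneous white fat (psWAT).

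Levels are given in CPM, the count of a gene scaled to the total of its library. Of 18 STM libraries 17 were retained, with totals from 6851903 to 13769280 counts. Replicate 3 at 12 h, with 4590060 counts, was among the libraries that the study's quality control left out, so 12 h has 2 STM libraries. A count of 3 is used as the floor, which covers counting error only, and equals 0.218 to 0.438 CPM in the retained STM libraries.

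Some STM libraries stood apart. Replicates 1 and 3 at 18 h were the closest of all pairs of retained STM libraries by the mean chi-square per gene, at 4.77 against 14.5 for the next pair. By the median they were not, at 2.09 against 1.78 for replicate 2 at 0 h with replicate 2 at 2 h. In other organs the closest pair of the same time had a mean from 1.91 in BST to 13.1 in pgWAT. Replicates 1 and 3 at 18 h differed by more than sampling noise and were kept as separate libraries. Results at 18 h are also given with their counts summed. Replicate 2 at 22 h lay within the range of the 0 and 2 h libraries for all 7 members detected in STM. By the library names, the 0 h and 2 h libraries and replicates 1 and 2 at 8 h were sequenced in lane 5 (8 libraries), and replicate 3 at 8 h and the later ones in lane 6 (9 retained libraries). Fasting time and lane can be told apart only through the 3 libraries at 8 h.

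Gastric glands hold parietal cells, which secrete hydrochloric acid, and chief cells, which store and release precursors of digestive enzymes. Acid leaves the parietal cell through an ATP-driven pump that exchanges protons for potassium ions and is built of a catalytic and a glycosylated subunit, while chloride and bicarbonate cross the membrane through other exchangers and channels. The transcription factor Bhlha15, also called Mist1, shapes the secretory machinery of chief cells, which in mice are also the source of intrinsic factor, the protein that binds vitamin B12 for uptake in the gut.

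Per kilobase of exon, Pgc had the highest mean level of the members in STM, at 93948 CPM per kb (SD 24966, n = 17). Atp4b had a mean level of 1349 CPM per kb (SD 524), Gif 1046 (SD 567) and Atp4a 1039.6 (SD 418). Atp4b lay above Atp4a in all 17 libraries and above Gif in 15, while Gif lay above Atp4a in 8. Below them came Slc26a9 at 30.2 CPM per kb (SD 9.62), Bhlha15 at 11.6 (SD 6.62) and Slc26a7 at 2.64 (SD 1.08), while Lipf had no count in any STM library. Together the members took 7.44% of the counts in replicate 2 at 18 h, the lowest share, and 22.4% in replicate 2 at 8 h, the highest.

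Atp4a, at chr7:30712209-30725534 (plus strand) in GRCm38, encodes the catalytic subunit of the pump. Its level was 4475, 3461 and 4559 CPM in the libraries at 0 h, 5114, 4366 and 6169.7 CPM at 2 h and 5589, 6535 and 4645 CPM at 8 h. It was 4018 and 2735 CPM at 12 h, 1818, 2329 and 1869 CPM at 18 h and 2900.0, 4712 and 1173 CPM at 22 h. All 3 libraries at 18 h lay below every earlier library. Of the 6 libraries at 18 and 22 h 5 lay below all 6 at 0 and 2 h, the exception being replicate 2 at 22 h, and the same held for Atp4b, Gif, Slc26a7 and Bhlha15, so for 5 of 7 members. Among all tested genes 8.34% had at least 5 of the 6 late libraries below all early ones.

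Atp4b, at chr8:13386205-13396825 (minus strand), encodes the glycosylated subunit that brings the pump to the membrane. Its level was 2110.3, 1813 and 2595 CPM at 0 h, 2458, 2228 and 2939.8 CPM at 2 h and 2955, 3334 and 2595 CPM at 8 h. It was 2326 and 1575 CPM at 12 h, 911, 1336 and 863 CPM at 18 h and 1659.6, 2321 and 589 CPM at 22 h. The lowest library, replicate 3 at 22 h, was also the lowest for Atp4a. The antisense gene Gm45410 lies within Atp4b. As the strand setting of the counting is not given in the sources used here, it is not known how reads over their overlap were counted.

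The ratio of Atp4a to Atp4b per kb ran from 0.693 to 0.869 over the 17 libraries, while the level of Atp4a itself differed 5.57-fold between its lowest and highest library. The mean log2 ratio of the counts was 0.99 (SD 0.105, n = 6) at 0 and 2 h and 0.96 (SD 0.126, n = 6) at 18 and 22 h. The difference of -0.03 was smaller than the spread between libraries (exact permutation test over 924 splits, two-sided, p = 0.645).

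Slc26a7, at chr4:14502430-14621805 (minus strand), encodes a chloride and bicarbonate exchanger of the basolateral membrane of parietal cells. Its level was 16.5, 14.05 and 18.1 CPM at 0 h, 23.6, 13.8 and 20.7 CPM at 2 h and 21.6, 22.1 and 18.1 CPM at 8 h. It was 13.5 and 6.74 CPM at 12 h, 8.39, 8.67 and 8.53 CPM at 18 h and 8.499, 15.3 and 5.25 CPM at 22 h. The libraries at 18 h were nearly equal, and all 3 lay below every library at 0, 2 and 8 h.

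Slc26a9, at chr1:131744022-131771504 (plus strand), encodes another anion transporter of the gastric epithelium. Its level was 141.2, 154.8 and 113.9 CPM at 0 h, 136.8, 158 and 187.7 CPM at 2 h and 151.3, 268 and 173 CPM at 8 h. It was 177 and 179 CPM at 12 h, 94.9, 201 and 90.2 CPM at 18 h and 231.5, 152.8 and 70.2 CPM at 22 h. The late libraries spread to both sides of the early ones, with 3 below all 6 and 2 above all 6. Replicate 2 at 18 h, the lowest library for Gif and Bhlha15, was 1 of the 2 above.

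Gif, also named Cblif, at chr19:11747554-11763447 (plus strand), encodes intrinsic factor. Its level was 1591, 1651 and 2195 CPM at 0 h, 1894, 2731 and 2352 CPM at 2 h and 2136, 3135 and 2153 CPM at 8 h. It was 1734 and 606 CPM at 12 h, 650.4, 165.03 and 614 CPM at 18 h and 751, 2277 and 700.2 CPM at 22 h. The highest and lowest libraries differed 19-fold, the widest range of the 7 detected members. Replicate 2 at 12 h, with 606 CPM, already lay below all libraries at 0, 2 and 8 h, and replicate 1 at 12 h did not.

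Pgc, at chr17:47726842-47734482 (plus strand), encodes progastricsin, the precursor of a pepsin. Its level was 160189, 121820 and 137431 CPM at 0 h, 123833, 152057 and 150450 CPM at 2 h and 108663, 210853 and 134308 CPM at 8 h. It was 157822 and 93356 CPM at 12 h, 133129, 70388 and 134244 CPM at 18 h and 86161, 156022 and 86064 CPM at 22 h. The range was 2.996-fold, the narrowest of the detected members, and 3 of the 6 late libraries lay within the early range.

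Bhlha15, at chr5:144190286-144194441 (plus strand), was counted at 33.8, 39.6 and 58 CPM at 0 h, 41.5, 49.4 and 43.5 CPM at 2 h and 42.5, 114.5 and 50.5 CPM at 8 h. It was 48.4 and 25.7 CPM at 12 h, 19.7, 7.02 and 26.2 CPM at 18 h and 25.6, 40.4 and 23.2 CPM at 22 h. For Bhlha15 as for Gif, the lowest library was replicate 2 at 18 h and the highest replicate 2 at 8 h.

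Lipf, at chr19:33961187-33976810 (plus strand), encodes gastric lipase. It had 0 counts over the 18 STM libraries, the library left out included, which allows a level of up to 0.0185 CPM. Other lipase genes were looked at after this was seen. The neighbouring genes Lipm, Lipn and Lipk had mean levels of 57.8, 14.9 and 11.2 CPM (SD 37.2, 9.09 and 6.70, n = 17). On the other side of Lipf, Lipo1, Lipo4 and Lipo5 had 0 counts and Lipo2 2 over the 18 libraries, while Lipo3 had a mean level of 10.1 CPM (SD 3.37). Away from this cluster, the pancreatic lipase genes Pnliprp2, Pnliprp1 and Pnlip had 216, 60.2 and 4.44 CPM (SD 100.6, 26.9 and 14.5) and Cel 15.6 CPM (SD 8.42). The mean of Pnlip rests largely on its highest library, at 60.1 CPM. The phospholipase Pla2g1b had a mean level of 20157 CPM (SD 5656) and Clps, which encodes colipase, 37756 CPM (SD 10158).

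**Figure D1:**
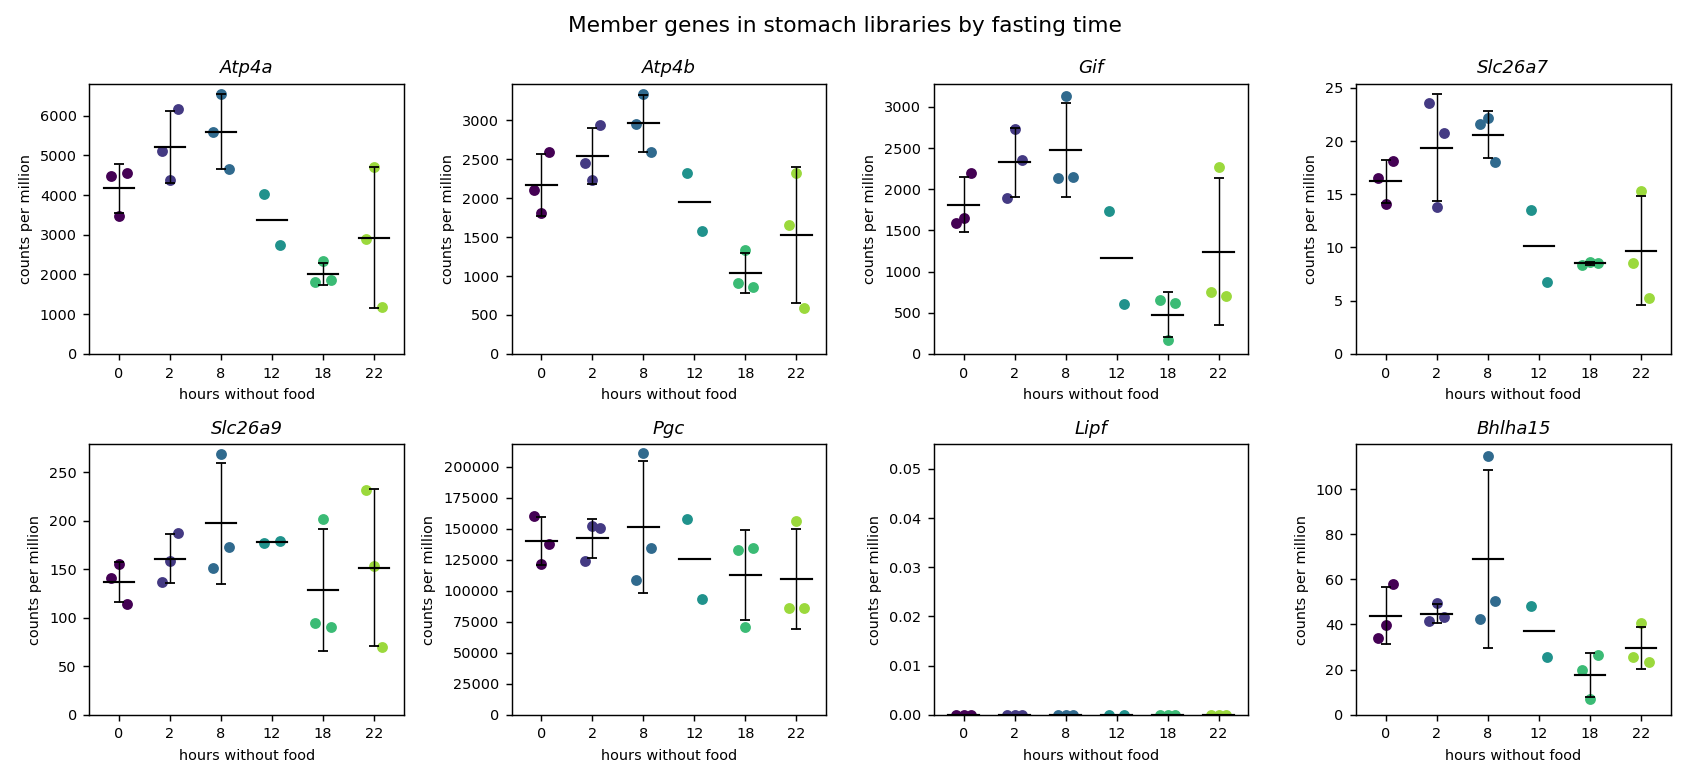
CPM of the 8 genes in the 17 retained stomach libraries against hours without food, with 1 point per library, the mean as a bar and the SD as an error bar where a time has 3 libraries. For Atp4a, Atp4b, Gif, Slc26a7 and Bhlha15, 5 of the 6 libraries at 18 and 22 h lie below all 6 at 0 and 2 h, while Slc26a9 and Pgc overlap more and Lipf is at 0.

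Each fasting time was compared with 0 h across 16281 genes, to ask when a change can first be seen. A call needed a log2 fold change beyond 1 in either direction together with an adjusted p below 0.05, and 7 of the 8 members passed the filter on low counts, Lipf being left out. In bulk tissue, fewer cells of a type and less RNA per cell cannot be told apart. At 2, 8 and 12 h edgeR called 0 members, beside 0% of all genes at each time. An unadjusted p under 0.05 was reached by 0 members at these times and by 1054, 361 and 1256 genes, and DESeq2 called 0 members and 2, 0 and 15 genes. The fitted log2 fold changes at 8 h ran from 0.07 for Pgc to 0.63 for Bhlha15.

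At 18 h 2 of 7 tested members were called lower, Gif and Slc26a7, beside 4.77% of all genes. Gif fell 4.46-fold (log2 fold change -2.16, SE 0.561, edgeR adjusted p = 0.0206) and Slc26a7 fell 2.20-fold (log2 fold change -1.14, SE 0.368, edgeR adjusted p = 0.0468), each with all 3 libraries below all 3 at 0 h. The log2 fold change was -1.27 for Atp4a, -1.29 for Atp4b and -1.54 for Bhlha15, with edgeR adjusted p of 0.0567, 0.0522 and 0.0587. It was -0.53 for Pgc and -0.27 for Slc26a9, with edgeR adjusted p of 0.487 and 0.698. DESeq2 called 1848 genes in either direction and 5 members, the same pair with Atp4a, Atp4b and Bhlha15.

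With replicates 1 and 3 at 18 h summed as 1 library, a setting chosen after seeing the data, edgeR called 0 members at 18 h, with adjusted p of 0.0556 for Gif and 0.127 for Slc26a7, and 5 members and 3929 genes had an unadjusted p under 0.05. The call of Gif was also lost without replicate 3 at 0 h (edgeR adjusted p = 0.0883), replicate 1 at 18 h (0.0533) or replicate 3 at 18 h (0.0587). That of Slc26a7 was lost without any single library at 2, 8 or 18 h or without replicate 1 or 3 at 0 h, 11 libraries in all, with edgeR adjusted p up to 0.157. Leaving out each library in turn gave log2 fold changes from -2.45 to -1.75 for Gif and from -1.31 to -0.96 for Slc26a7.

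All 0 h libraries were in lane 5 and all 18 h libraries in lane 6. With lane as a covariate edgeR called 0 members and 0 genes at 18 h, where 0 members and 1355 genes had an unadjusted p under 0.05, and the log2 fold change was -1.70 for Gif and -0.73 for Slc26a7.

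At 22 h edgeR called 0 members, beside 0.233% of all genes, while 1 member, Slc26a7, and 3519 genes had an unadjusted p under 0.05, and DESeq2 called 0 members and 624 genes. The fitted log2 fold change was -0.85 for Slc26a7 (SE 0.364), -0.68 for Gif (SE 0.540) and -0.61 for Atp4a (SE 0.427). Leaving out 1 library at a time gave -1.32 to -0.51 for Slc26a7, -1.44 to -0.35 for Gif and -1.10 to -0.20 for Atp4a, each lowest without replicate 2 at 22 h and highest without replicate 3 at 22 h. A direct contrast of 22 h with 18 h, added after seeing the data, gave edgeR calls for 0 members, beside 0% of all genes. Here 1 member, Gif, and 889 genes had an unadjusted p under 0.05, and DESeq2 called 0 members and 11 genes. The log2 fold change of Gif in that contrast was 1.48 (SE 0.550, edgeR adjusted p = 0.868).

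The long fast (18 and 22 h, n = 6, called late) was then set against 0 and 2 h (n = 6, called early). Gif had a lowest, median and highest level of 1591, 2045 and 2731 CPM early and 165.03, 675 and 2277 CPM late. Slc26a7 had 13.8, 17.3 and 23.6 CPM early and 5.25, 8.52 and 15.3 CPM late, and Atp4a 3461, 4517 and 6169.7 CPM early and 1173, 2099 and 4712 CPM late. The groups overlapped for each gene through replicate 2 at 22 h. These 3 of 7 tested members were called lower, beside 3.39% of all genes. Gif fell 2.83-fold (log2 fold change -1.5, SE 0.389, edgeR adjusted p = 0.0126), Slc26a7 2.04-fold (-1.03, SE 0.258, adjusted p = 0.0103) and Atp4a 2.01-fold (-1.01, SE 0.304, adjusted p = 0.0254). The median log2 fold change was -1.01 over the 7 members and 0.01 over all genes.

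Atp4b passed on the adjusted p alone (log2 fold change -0.96, SE 0.300, edgeR adjusted p = 0.0295), and on that rule 4 of 7 members were lower, beside 12.0% of all genes. Bhlha15 had a log2 fold change of -1.03 (SE 0.356, edgeR adjusted p = 0.0511), Pgc of -0.43 (adjusted p = 0.400) and Slc26a9 of -0.12 (adjusted p = 0.808). Gif was called without each of the 17 libraries in turn, with edgeR adjusted p from 0.00294 to 0.0373. Slc26a7 lost its call without replicate 3 at 0 h, replicate 1 or 3 at 2 h or replicate 3 at 22 h, where its log2 fold change was -0.94, -0.95, -1.0 and -0.86. Atp4a lost it without replicate 1 or 3 at 0 h (-0.97 and -0.93), replicate 3 at 2 h (-0.93), replicate 1 or 3 at 18 h (-0.97 for each) or replicate 3 at 22 h (-0.80). Without replicate 2 at 22 h, 5 members were called lower, and the genes called in either direction went from 1203 to 1460. With replicates 1 and 3 at 18 h summed as 1 library, edgeR called 2 members and 974 genes.

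A joint test over the 6 times called 0 members by edgeR, beside 6.55% of all genes, with adjusted p of 0.0691 for Slc26a7 and 0.0751 for Gif as the smallest. An unadjusted p under 0.05 was reached by 5 members and 3860 genes, and DESeq2 called 5 members and 17.2% of all genes.

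With lane as a covariate, edgeR called 0 members and 0 genes in the late comparison, and 0 members and 828 genes had an unadjusted p under 0.05. The log2 fold change was then -1.04 for Gif, -0.61 for Slc26a7, -0.54 for Atp4b, -0.47 for Atp4a and -0.19 for Bhlha15, while Slc26a9 and Pgc changed sign, to 0.35 and 0.01. Time and lane therefore cannot be told apart in these falls beyond what the 8 h libraries show. Replicate 3 at 8 h, sequenced in lane 6 like all late libraries, had 2595 CPM of Atp4b, 18.1 CPM of Slc26a7 and 50.5 CPM of Bhlha15, each above all 6 late libraries. Its 4645 CPM of Atp4a, 2153 CPM of Gif and 134308 CPM of Pgc lay above 5 of 6, and its 173 CPM of Slc26a9 above 4. Against the 2 lane 5 libraries of the same time it was lower than both for Atp4a (5589 and 6535 CPM), Atp4b (2955 and 3334 CPM) and Slc26a7 (21.6 and 22.1 CPM), and lay between them for the other 4 detected members.

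Whether the members vary together was asked across the 17 STM libraries on log2(TMM-scaled CPM + 1), over 21 pairs, since Lipf gives none, with 100000 permutations, for which 1e-05 is the smallest p. Of the 21 pairs 18 had a positive Pearson r with an adjusted p under 0.05, the smallest r being 0.501. Among all pairs of 11993 genes, a share added after seeing the data, 12.9% had an r of that size or more. By Spearman rho 15 of the 18 pairs had an adjusted p under 0.05, those of Slc26a9 with Atp4a, Atp4b and Slc26a7 not among them. Of the 18 pairs 15 kept an r over 0.5 without the 2 libraries farthest from the median and 13 after each time's mean was subtracted, and 15 had an r over 0.5 within lane 5 and 18 within lane 6. No share of all gene pairs was computed for these counts, and each lane still spans several fasting times. The pump subunits were the closest pair, with r = 0.989 (permutation p = 1e-05, adjusted p = 5.25e-05) and rho = 0.951 (permutation p = 1e-05, adjusted p = 4.2e-05). They had r = 0.967 within lane 5, 0.991 within lane 6 and 0.978 without the 2 libraries farthest from the median of Atp4a. Atp4a and Slc26a7 had r = 0.943 (permutation p = 1e-05, adjusted p = 5.25e-05) and rho = 0.946 (permutation p = 1e-05, adjusted p = 4.2e-05). They had r = 0.874 within lane 5, 0.913 within lane 6 and 0.920 without the 2 libraries farthest from the median of Atp4a. Both pairs thus kept their relation within each lane.

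Among the chief cell genes Gif and Bhlha15 were closest over the 17 libraries, with r = 0.934 (permutation p = 1e-05, adjusted p = 5.25e-05) and rho = 0.919 (permutation p = 1e-05, adjusted p = 4.2e-05). They had r = 0.9002 within lane 5, 0.963 within lane 6 and 0.882 without the 2 libraries farthest from the median of Gif. Pgc and Bhlha15 had r = 0.842 (permutation p = 7e-05, adjusted p = 0.000245) and rho = 0.738 (permutation p = 0.00096, adjusted p = 0.00183). They had r = 0.798 within lane 5, 0.802 within lane 6 and 0.658 without the 2 libraries farthest from the median of Pgc. Across the cell types, Atp4a and Gif had r = 0.801 (permutation p = 0.00026, adjusted p = 0.000607) and rho = 0.811 (permutation p = 0.00012, adjusted p = 0.000360). They had r = 0.734 within lane 5, 0.658 within lane 6 and 0.857 without the 2 libraries farthest from the median of Atp4a. After each time's mean was subtracted, a step chosen after seeing the data, r was 0.984 for Atp4a with Atp4b, and 0.881 for Gif with Bhlha15, 0.899 for Pgc with Bhlha15 and 0.898 for Gif with Pgc, so Gif and Bhlha15 were then not the closest pair of the chief cell genes. Between the pump and chief cell genes it was lower than before, at 0.512 for Atp4a with Gif, 0.427 for Atp4b with Gif, 0.445 for Atp4a with Bhlha15 and 0.375 for Atp4b with Bhlha15, and at 0.594 and 0.498 for Atp4a and Atp4b with Pgc.

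Over all 17 libraries and within lane 6, Slc26a9 had the lowest r with each of Gif, Pgc and Bhlha15. Within lane 5 Slc26a7 had the lowest, at 0.450, 0.406 and 0.561, and Slc26a9 had 0.724, 0.781 and 0.795. With Gif it had r = 0.303 (permutation p = 0.2348, adjusted p = 0.235) and rho = 0.230 (permutation p = 0.374, adjusted p = 0.387). The pair had r = 0.151 within lane 6 and 0.482 without the 2 libraries farthest from the median of Gif. With Atp4a it had r = 0.702 (permutation p = 0.00184, adjusted p = 0.00258) and rho = 0.341 (permutation p = 0.1817, adjusted p = 0.212). The pair had r = 0.691 within lane 5, 0.785 within lane 6 and 0.405 without the 2 libraries farthest from the median of Atp4a.

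The genes most like each member were sought by Pearson r over the 17 libraries among 11993 genes. For Atp4a they were Atp4b (0.989), the intracellular chloride channel gene Clic6 (0.987) and the potassium channel gene Kcnq1 (0.986). For Atp4b they were Atp4a, the potassium channel gene Kcnj16 (0.987) and Clic6 (0.983). Slc26a7 was closest to Mdh1 (0.963), Acadsb (0.961) and Mccc1 (0.955), and Slc26a9 to Slc12a7 (0.935), Tmem151a (0.934) and the histamine receptor gene Hrh2 (0.928). Gif was closest to Gm6733 (0.966), the protease gene Furin (0.949) and Prss23 (0.943). Pgc was closest to Pla2g1b (0.923), Anpep (0.889) and the cholecystokinin receptor gene Cckar (0.881), and Bhlha15 to Gper1 (0.979), Herpud1 (0.944) and Cckar (0.943). Over these pairs r ran from 0.663 to 0.975 within lane 5 and from 0.804 to 0.991 within lane 6. These r values are descriptions, as the genes were chosen for them.

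Other genes of the members' cell types were followed in the late comparison, where edgeR called 3.39% of all genes lower and 4.00% higher, and on the adjusted p alone 12.0% lower and 10.7% higher. Of 20 further parietal cell genes 6 were called lower by edgeR, Kcnq1, Kcne2, Kcnj16, Clic6, Aqp4 and Slc9a4, and 0 higher, with a median log2 fold change of -0.63. Kcnq1 and Kcne2, which form a potassium channel that serves the pump, fell from 126.4 CPM (SD 17.05) to 60.4 CPM (SD 28.5) (log2 fold change -1.14, SE 0.276, edgeR adjusted p = 0.00936) and from 84.6 CPM (SD 29.1) to 33.6 CPM (SD 21.6) (log2 fold change -1.43, SE 0.398, edgeR adjusted p = 0.0218), each lower in 5 of 6 late libraries than in all early ones. Clic6 fell from 621 CPM (SD 103.1) to 315 CPM (SD 176) (log2 fold change -1.09, SE 0.292, edgeR adjusted p = 0.0149). The carbonic anhydrase gene Car2, the most abundant of the list over the 17 libraries, had 1180.0 CPM (SD 154.8) early and 626 CPM (SD 351) late. On the adjusted p alone 7 genes were lower and 1 higher, the creatine kinase gene Ckb, with 482 CPM (SD 63.6) early and 722 CPM (SD 89.4) late (log2 fold change 0.50, SE 0.164, edgeR adjusted p = 0.0363) and all 6 late libraries above all early ones. The summed list had a lowest, median and highest level of 3951, 4414 and 4997 CPM early and 2244, 3035 and 3944 CPM late.

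Of 10 further chief cell genes 2 were called lower by edgeR, Clu and Dpp4, beside 3.39% of all genes, and 0 higher, with a median log2 fold change of -0.70. On the adjusted p alone 5 of the 10 were lower, beside 12.0% of all genes, and 0 higher. Clu fell from 944 CPM (SD 166.9) to 427 CPM (SD 114.2), with all 6 late libraries below all early ones (log2 fold change -1.22, SE 0.2001, edgeR adjusted p = 0.00109), and Dpp4 fell from 8.63 CPM (SD 3.74) to 3.05 CPM (SD 1.06) (log2 fold change -1.56, SE 0.300, edgeR adjusted p = 0.00246). Xbp1, a transcription factor of secretory cells, had a log2 fold change of -0.98 (edgeR adjusted p = 0.00222). The chitinase gene Chia1, the most abundant, had 20093 CPM (SD 4502) early and 10955 CPM (SD 7839.6) late and was not called. The summed list had 13588, 23596 and 25585 CPM early and 5040.5, 10919.8 and 25698 CPM late. Of 6 described targets of Bhlha15, Rab3d and Rab26 among them also in the chief cell list, 1 was called lower by edgeR, Tmed6, from 181 CPM (SD 67.3) to 82.8 CPM (SD 51.9) (log2 fold change -1.25, SE 0.368, edgeR adjusted p = 0.0267), and the median was -0.39. Rab3d, the most abundant, had 236 CPM (SD 21.4) early and 170.1 CPM (SD 27.7) late, Atp2c2 had 5.41 CPM (SD 1.65) early and 4.05 CPM (SD 1.37) late, and the summed list had 407, 439.6 and 572 CPM early and 263, 279.9 and 389 CPM late.

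Genes of the ER secretory pathway, which Bhlha15-expressing cells use heavily, had 5 of 13 called lower by edgeR, beside 3.39% of all genes, and 0 higher, with a median log2 fold change of -0.97. Hspa5, an ER chaperone gene, was the most abundant over the 17 libraries. It fell from 723 CPM (SD 219) to 263 CPM (SD 53.4), with all 6 late libraries below all early ones (log2 fold change -1.56, SE 0.223, edgeR adjusted p = 0.000573). Pdia4 fell from 95.7 CPM (SD 15.95) to 44.3 CPM (SD 3.80) (log2 fold change -1.19, SE 0.156, edgeR adjusted p = 0.000321), and Pdia3 had 508 CPM (SD 45.9) early and 273 CPM (SD 33.7) late. Xbp1 is in both this list and the chief cell list. On the adjusted p alone 10 genes were lower, beside 12.0% of all genes, and 1 higher, the stress response gene Ddit3, with 15.6 CPM (SD 2.43) early and 29.4 CPM (SD 6.87) late (log2 fold change 0.83, SE 0.193, edgeR adjusted p = 0.00680) and 5 of 6 late libraries above all early ones. The summed list had 2825, 3369 and 4681 CPM early and 1806, 1903 and 2237 CPM late, without overlap.

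Markers of some other cells moved in the same libraries, and their part in the levels of the members was not tested. Summed smooth muscle genes had 5996, 8629 and 9062 CPM early and 7436, 15401 and 23036 CPM late, with 1 of 8 called higher by edgeR, beside 4.00% of all genes, Des (log2 fold change 1.04, SE 0.245, edgeR adjusted p = 0.00733), and a median log2 fold change of 0.67. On the adjusted p alone 4 of the 8 were higher, beside 10.7% of all genes, and 0 lower. Myh11, the most abundant, had 1919 CPM (SD 715) early and 3534 CPM (SD 1478) late (edgeR adjusted p = 0.0422). Acta2 had 1576 CPM (SD 236) early and 2833 CPM (SD 1127) late (edgeR adjusted p = 0.0360). Replicate 3 at 22 h, with the highest smooth muscle sum of 23036 CPM, was the lowest retained library for Atp4a, Atp4b, Slc26a7 and Slc26a9. Replicate 2 at 18 h, the lowest library for Gif, Pgc and Bhlha15, had a smooth muscle sum of 7436 CPM, within the early range, and replicate 2 at 22 h, with all 7 members in the early range, had 13784 CPM, above all early libraries. Forestomach squamous genes summed to 2376, 3678 and 7597 CPM early and 1123, 8328 and 11038 CPM late, so the late sums spanned the early range. Of these 12 genes edgeR called 0 higher and 1 lower, beside 3.39% of all genes, Krt6a (log2 fold change -2.75, SE 0.738, edgeR adjusted p = 0.0185). The median log2 fold change was 0.73. Lor, the most abundant over the 17 libraries, had 779 CPM (SD 375) early and 1643 CPM (SD 786) late. Krtdap had 489.7 CPM (SD 135.2) early and 1140.0 CPM (SD 553) late.

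Genes of surface and neck mucous cells, the glands' other epithelium, summed to 30502, 48259 and 89051 CPM early and 11627, 16609.5 and 46030.3 CPM late, with 3 of 6 called lower by edgeR, beside 3.39% of all genes, and a median log2 fold change of -1.24. The called genes were Tff2 (log2 fold change -1.92, SE 0.354, edgeR adjusted p = 0.00194), Muc5ac (-1.40) and Gkn2 (-1.42), and Gkn1, the most abundant, had 15833 CPM (SD 6954) early and 8012 CPM (SD 5252) late. Gastric endocrine genes summed to 1622, 1964 and 2713 CPM early and 943, 1481 and 1781 CPM late, with 2 of 6 called lower by edgeR and a median of -0.63. Gast, which encodes the hormone gastrin that stimulates parietal cells, fell from 219.8 CPM (SD 77.1) to 9.44 CPM (SD 10.1) and Chgb from 97.4 CPM (SD 25.6) to 26.97 CPM (SD 16.4), each with all 6 late libraries below all early ones and edgeR adjusted p of 0.00502 and 0.000418. Ghrl, the most abundant, had 939 CPM (SD 279) early and 749 CPM (SD 178) late, and Sst 291 CPM (SD 74.9) early and 183.02 CPM (SD 44.6) late. Of 6 proliferation genes 3 were called lower by edgeR, Top2a (-1.25), Cdk1 (-1.05) and Ccnb1 (-1.60), with a median of -1.0 and a sum of 112.03, 175 and 208 CPM early and 81.9, 93.4 and 145.3 CPM late. Mki67, the most abundant, had 65.4 CPM (SD 19.8) early and 44.8 CPM (SD 13.02) late, and Pcna 22.3 CPM (SD 2.49) early and 12.2 CPM (SD 3.40) late.

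Of 12 pancreatic acinar genes 9 were tested and 3 called lower by edgeR, beside 3.39% of all genes, with a median log2 fold change of -2.54 and a sum of 115.3, 161.7 and 644 CPM early and 27.8, 37.6 and 63.1 CPM late. Their mean early and late levels were 153.2 and 23.2 CPM (SD 68.4 and 15.4) for Cela1, the most abundant. They were 2.17 and 0.235 CPM (SD 2.83 and 0.267) for Cela2a and 4.75 and 0.295 CPM (SD 7.71 and 0.435) for Amy2a5. Of 7 plasma and B cell genes 4 were tested and all 4 called lower by edgeR, with a median of -3.09 and a sum of 21.1, 43.8 and 159.3 CPM early and 4.38, 11.8 and 18.4 CPM late. Igkc, the most abundant over the 17 libraries, had mean levels of 19.8 and 3.16 CPM (SD 16.1 and 3.14) and Jchain 4.80 and 0.564 CPM (SD 5.97 and 0.744). Igha had 20.4 and 1.76 CPM (SD 34.9 and 2.14) and Derl3 13.8 and 5.16 CPM (SD 7.51 and 1.62). Of 6 white adipocyte genes 4 were called lower by edgeR, with a median of -2.48 and a sum of 71.8, 151.4 and 259 CPM early and 94.1, 104.5 and 113.9 CPM late. Fabp4, the most abundant, had mean levels of 82.8 and 82.2 CPM (SD 33.9 and 8.82) and Lep 0.977 and 0.0243 CPM (SD 1.01 and 0.0596). Plin1 had 3.49 and 0.678 CPM (SD 2.36 and 0.986) and Adipoq 7.60 and 1.25 CPM (SD 5.19 and 1.06). The late means of Lep, Cela2a and Amy2a5 lay within or under the floor range of 0.218 to 0.438 CPM. These genes passed the filter on low counts through other libraries, so a call of them could hardly be other than lower. Of the untested B cell genes, Cd79a had mean levels of 0.225 CPM early and 0.443 CPM late, and Ms4a1 0.147 and 0.0878 CPM. No conclusion is drawn from the counts of called genes in these 3 lists. No gene of a list of 12 or fewer was at 0 in all 17 libraries.

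**Figure D2:**
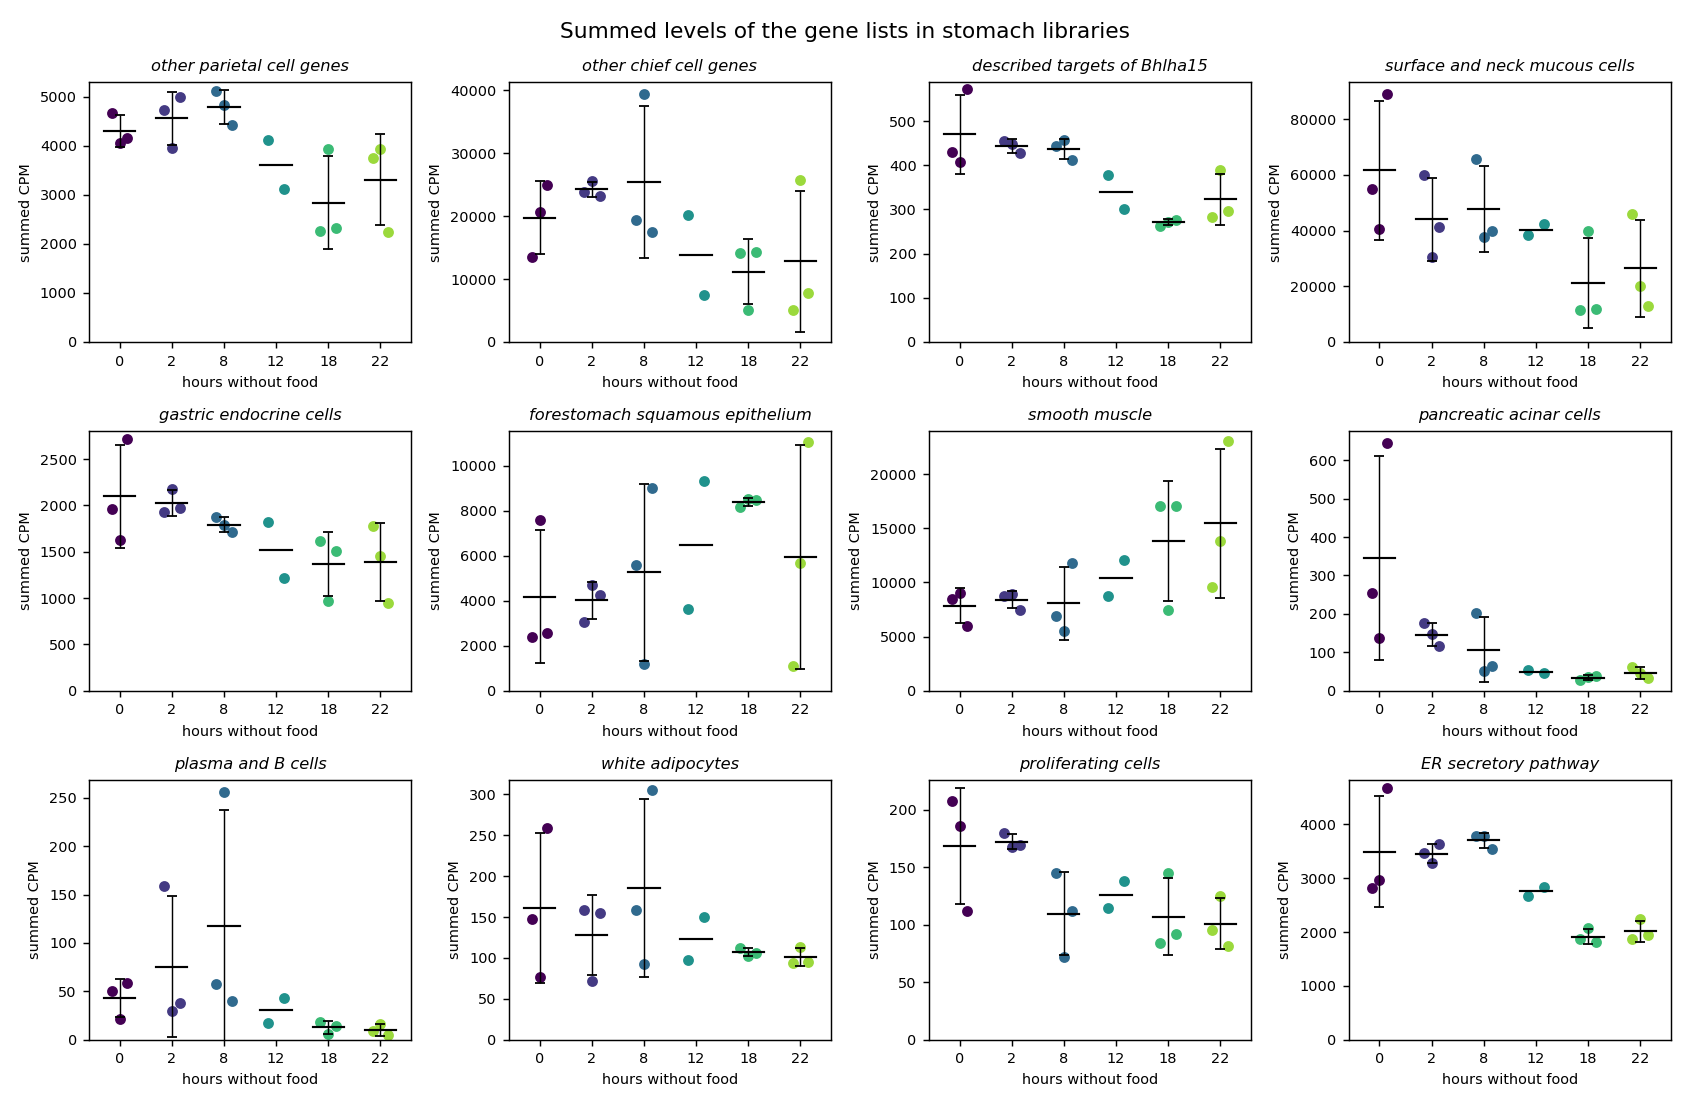
Summed CPM of 12 gene lists in the 17 retained stomach libraries against hours without food, with 1 point per library, the mean as a bar and the SD as an error bar where a time has 3 libraries. Smooth muscle genes reach 23036 CPM in replicate 3 at 22 h, and the ER secretory genes at 18 and 22 h lie below all their values at 0 and 2 h.

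Set against the mean of the 8 other organs, all 7 tested members were called higher in STM by edgeR, beside 20.5% of all genes. They are known as stomach genes, and Gif and Slc26a9 each exceeded 3 counts in only 1 of 140 libraries outside STM. Both genes thus passed the filter on low counts only through STM. The count therefore describes the choice of members and the filter, and no conclusion is drawn from it. The lowest STM library exceeded the highest of 140 retained libraries of other organs 2056-fold for Pgc, 168.2-fold for Atp4b, 91.9-fold for Gif and 29.2-fold for Atp4a. Slc26a9 had at most 5 counts in any library outside STM. For Bhlha15 the lowest STM library, at 7.02 CPM, was close to replicate 3 of psWAT at 0 h, at 6.59 CPM.

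Among the members detected in STM, Slc26a7 was the one whose range there met those of other organs. Its mean level was 14.3 CPM (SD 5.86, n = 17) in STM, 5.997 CPM (SD 1.26, n = 18) in OB, 2.96 CPM (SD 1.201, n = 18) in CBL, 2.26 CPM (SD 1.32, n = 16) in BRN and 2.03 CPM (SD 0.666, n = 18) in BST. To compare organs within mice, libraries of the same time and replicate number were taken as 1 mouse, which the sample names do not state. On that basis the level of Slc26a7 was higher in CBL than in BST in 14 of 18. It was higher in CBL than in BRN in 10 of 16 and higher in BRN than in BST in 8 of 16. The highest libraries of OB and CBL, at 8.42 and 6.11 CPM, lay above the lowest of STM, at 5.25 CPM. Slc26a7 exceeded 3 counts in all 18 libraries of OB, CBL and BST and in 15 of 16 of BRN. In LIV and the 3 fat depots its mean was 0.172 CPM or less.

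Bhlha15 had its next highest means in psWAT, at 1.62 CPM (SD 1.57, n = 17), and LIV, at 1.30 CPM (SD 1.24, n = 18). It was higher in psWAT than in LIV in 9 of 17 mice, matched by replicate number as above. Atp4b had a mean of 1.24 CPM (SD 0.819, n = 17) in iBAT and exceeded 3 counts in 13 libraries there, while Atp4a had 2 counts over all iBAT libraries. Atp4a had a mean of 0.896 CPM (SD 0.826, n = 16) in BRN, 0.615 CPM (SD 0.271, n = 18) in BST and 0.614 CPM (SD 0.585, n = 18) in LIV, where Atp4b had at most 2 counts in a library. In pgWAT the mean was 2.70 CPM (SD 9.44, n = 18) for Atp4a, with a median of 0.0917 CPM, as 1 library held 266 of 334 counts. Atp4b had 0.400 CPM (SD 0.794, n = 18) there, and the highest single library outside STM was of pgWAT for both genes.

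A few libraries of other organs held more of a member. In replicate 3 of pgWAT at 18 h Atp4a had 266 counts, or 40.2 CPM, with 0 counts of Atp4b and 23 of Lipf. In replicate 2 of iBAT at 8 h Pgc had 34.2 CPM and Gif 1.80 CPM, and no other library outside STM exceeded 3 counts of Gif. Lipf had 87 counts over all libraries of all organs, of which 71 were in pgWAT.

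**Figure D3:**
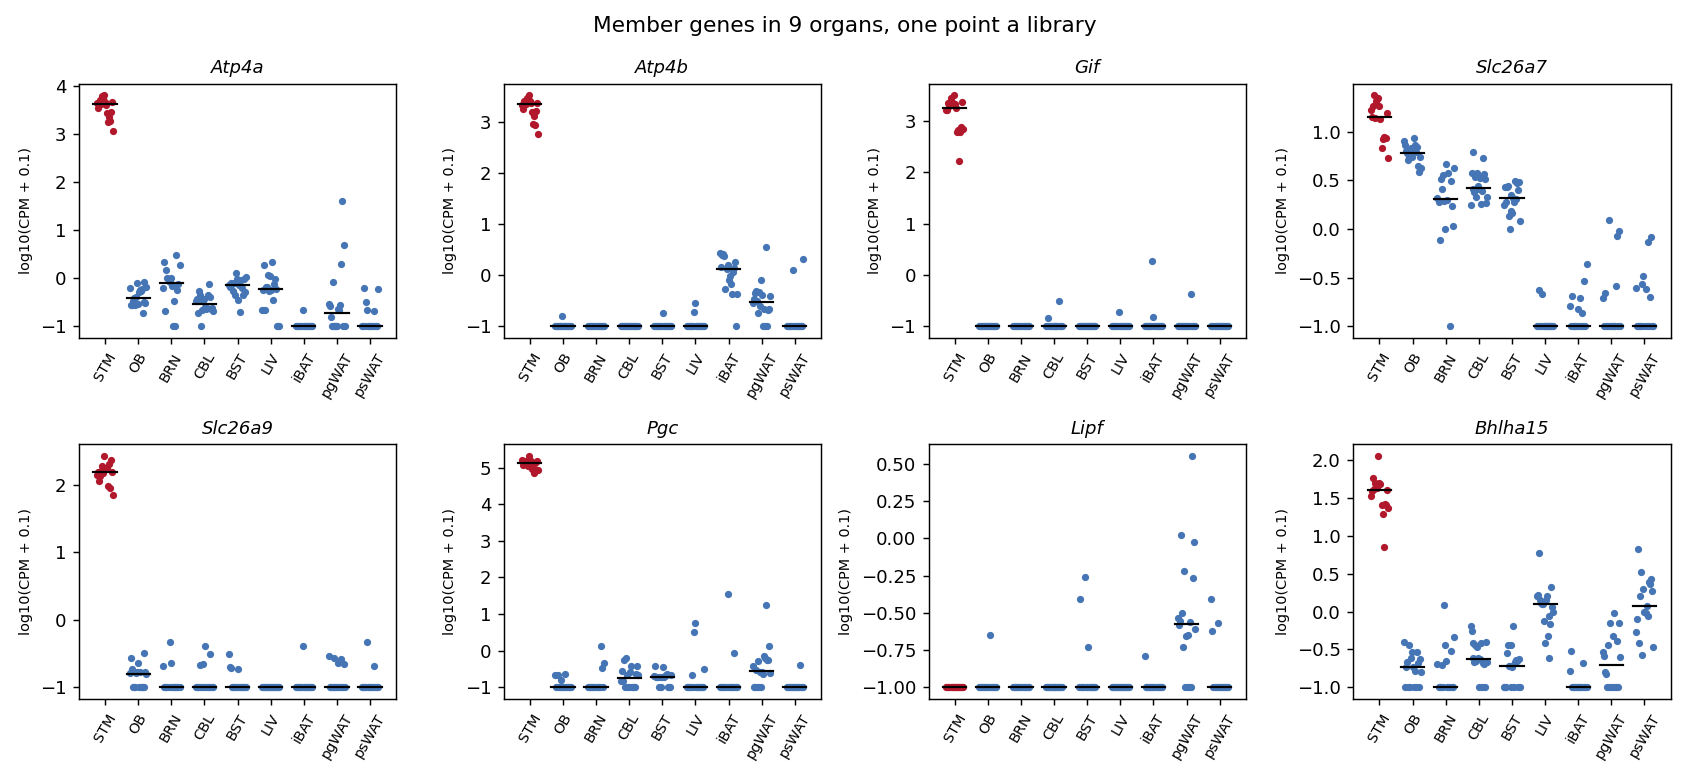
Level of the 8 genes as log10(CPM + 0.1) in the retained libraries of 9 organs, with 1 point per library and a line at the median of the log values. Every stomach library lies above every library of the other organs for Atp4a, Atp4b, Gif, Slc26a9, Pgc and Bhlha15, while for Slc26a7 the olfactory bulb reaches 8.42 CPM and the cerebellum 6.11 CPM, and Lipf is at 0 in stomach.

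Promoters of the members, windows of 300 bases around the gene's start, were searched on both strands for CATATG, an E-box described for Bhlha15, for CAGCTG, another E-box, and for AAGGTCA, a motif described for estrogen-related receptors. RefSeq sequences (GRCm38.p6) were matched for 6 of the 8 members, as the promoter set used here had no entry for Atp4b and Slc26a7. Of all 32851 promoters 3.92% held CATATG, 16.3% CAGCTG and 4.72% AAGGTCA. Among the 6 members CAGCTG was found 2 times in Atp4a, and no other match was found. The promoters of Atp4a (chr7:30711959-30712258, plus strand), Gif (chr19:11747309-11747608, plus strand) and Bhlha15 (chr5:144190036-144190335, plus strand) are shown as those of 3 members with 5 of 6 late libraries below all early ones, with matches in capitals.
Atp4a: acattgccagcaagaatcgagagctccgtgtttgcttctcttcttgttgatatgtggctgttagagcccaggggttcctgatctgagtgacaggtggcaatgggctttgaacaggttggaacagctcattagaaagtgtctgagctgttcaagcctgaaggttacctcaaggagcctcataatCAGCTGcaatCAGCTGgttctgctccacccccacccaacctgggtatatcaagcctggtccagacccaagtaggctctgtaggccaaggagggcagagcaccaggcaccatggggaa
Gif: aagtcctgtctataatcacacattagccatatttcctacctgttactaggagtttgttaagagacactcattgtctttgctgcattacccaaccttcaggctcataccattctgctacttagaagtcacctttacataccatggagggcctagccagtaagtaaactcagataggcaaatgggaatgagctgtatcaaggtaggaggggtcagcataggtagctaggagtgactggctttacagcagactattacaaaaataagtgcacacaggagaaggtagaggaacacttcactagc
Bhlha15: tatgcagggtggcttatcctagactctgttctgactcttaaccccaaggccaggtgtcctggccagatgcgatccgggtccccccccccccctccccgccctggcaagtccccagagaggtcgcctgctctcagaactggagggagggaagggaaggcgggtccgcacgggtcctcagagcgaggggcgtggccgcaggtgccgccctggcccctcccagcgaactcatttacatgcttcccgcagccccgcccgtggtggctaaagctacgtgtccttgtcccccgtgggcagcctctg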

How the data were processed

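The authors sequenced stranded mRNA libraries (paired reads of 150 bases), aligned them with TopHat2 2.1.1 to GRCm38.p5, allowing 2 mismatches, and counted unique reads per Gencode M16 gene with HTSeq 0.9.1. The deposited values are raw counts. From them CPM, and levels per kb with Gencode M21 exon lengths, were computed. Genes with at least 10 counts at the median library size in at least 3 libraries were tested with edgeR 4.0.16 (quasi-likelihood, TMM, robust, R 4.3.3), with p-values adjusted by Benjamini-Hochberg over all tested genes, and with DESeq2 1.42.0 as an alternative. The procedure was tested on simulated data that held no effect of lane, so that test does not bear on the lane question. Library totals ran from 130701 to 27801717 counts, and 157 of 162 libraries were retained. Named genes were all 8 members, the 3 genes most like each (mean CPM of at least 5), and genes from each of 12 lists. These were the most abundant gene, by mean CPM over the 17 libraries, and up to 3 with the smallest p. Aqp4, Slc9a4 and Ccnb1 were also named as called genes of their lists, and Rab26 as shared between lists. Ckb, Ddit3 and lipase genes were chosen after seeing the data. Members and lists were chosen with earlier results of these data known. Alternatives covered scaling, filter, samples, lane, replicate block and leaving out each library.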

Additional observations from a re-analysis of the deposited data

Results flagged for a closer look

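In the stomach library left out at 12 h (replicate 3), Slc26a9 stood at 231.4 CPM, above all 3 libraries at 0 h (141.2, 154.8 and 113.9 CPM). It came up because it is a level above the unfasted libraries in a library outside the main fit. The same library had 386 CPM of Gif and 3.27 CPM of Slc26a7, below all 3 libraries at 0 h. The cause was not tested. In 14 groups of 6 libraries (each of 7 members, early and late), no library stood apart by Dixon's test.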

How the results depend on the processing

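Of the log2 fold changes of the members at 18 h, at 22 h and late under all alternatives, 531 kept direction and side of the threshold, 42 lost it, 30 gained it and 6 changed sign. With lane as a covariate edgeR called 0 genes and 0 members at 18 h, at 22 h, in the late comparison and in the joint test, with 1355, 743, 828 and 845 genes at an unadjusted p under 0.05, and the log2 fold change became 0.20 for Slc26a9 at 18 h, 0.15 for Bhlha15 at 22 h, and 0.35 for Slc26a9 and 0.0135 for Pgc late. DESeq2 called 2 genes at 2 h, 15 at 12 h, 1848 at 18 h, 624 at 22 h, 11 between 22 and 18 h and 17.2% of tested genes in the joint test, and 5 members at 18 h and 5 in the joint test. Without the filter on low counts edgeR called 1 gene at 12 h, 274 at 22 h and 1 between 22 and 18 h, and 2 members in the joint test. Scaling by total counts called 1 member at 18 h, 18 genes at 22 h and 1 member late, and moved the median of all genes by 0.191 at 18 h. All 18 libraries gave 1 member at 18 h and 0 genes at 22 h, with 2996 at an unadjusted p under 0.05. A fit of only the 2 times gave 624 genes and 1 member at 18 h and 0 genes at 22 h, where 1840 had an unadjusted p under 0.05. The adjusted p alone gave 2333 genes at 18 h and 3696 late, and a fold of at least 1.5, chosen after seeing the data, 2865 late. The late comparison had 786 genes as 12, 18 and 22 h against 0, 2 and 8 h, and 1 member against 0 h alone. With replicates 1 and 3 at 18 h summed, also chosen after seeing the data, there were 516 genes and 0 members at 18 h and 25 genes at 22 h. This setting gave 974 genes and 2 members late and 0.768% of tested genes in the joint test. The replicate block gave 1 member at 18 h and 2 genes at 22 h. Same-numbered libraries had a mean correlation of deviations of 0.00459, so the numbers do not pair STM samples. Leaving out 1 library gave 0 to 5 genes at 2 h, 0 to 5 at 8 h, 498 to 2103 at 18 h, 0 to 898 at 22 h, 890 to 1502 late and 0.701 to 10.7% of tested genes in the joint test, with 0 to 4 members at 18 h, 1 to 5 late and 0 to 2 in the joint test. The log2 fold change of Slc26a9 ran from -0.44 to 0.49 at 22 h (-0.44 without replicate 1 at 22 h) and from -0.39 to 0.0749 late (0.0749 without replicate 3 at 22 h). The count of genes at 18 h was lowest without replicate 3 at 18 h (498), replicate 1 at 18 h (500) or replicate 3 at 0 h (575). The cause was not tested. Levels under 3 counts are not resolved at this depth.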
